A study of Rattus norvegicus with 4 samples.

Results

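Cathepsins are the proteases of the lysosome, and cystatins are the proteins that hold the cysteine cathepsins in check. In the rat mammary gland 10 genes of this kind were followed, the cathepsin genes Ctsb, Ctsc, Ctsd, Ctsh, Ctsk, Ctsl, Ctss and Ctsz (8 cathepsins) and the cystatin genes Cst3 and Cstb (2 cystatins). Members were all probe sets whose single gene symbol in the platform annotation was one of these names, which gave 12 probe sets for 10 genes of 14217 genes on the array. All 10 genes had a signal above the floor of 91.5 in every array. The floor is the 40th percentile of all signals, lower values were raised to it, and no member needed this.

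Gland RNA of 4 groups of rats was hybridised, 1 array for each group. The first group was homozygous Hirosaki hairless rats (HHR) on day 1 of lactation, and the next was heterozygous HHR on day 1 of lactation. The other groups were Sprague-Dawley rats (SDR) on day 1 of involution and SDR on day 1 of lactation. HHR is a hairless mutant strain, and neither the animals' age, the number of animals behind an array, nor the length of lactation before involution is given in the labels. With 1 array in each group there is no replicate error and no test, so every difference is described by its size, and it covers the sampled arrays only. The values are MAS5 signals, intensities per probe set on a linear scale that the authors had brought to one trimmed mean, and signals of different probe sets cannot be set against each other.

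Cathepsins are made as inactive precursors, are carried to the lysosome by sorting receptors, and are activated there by acid and by cleavage. In the mouse gland, forced weaning activates the transcription factor Stat3, and lysosomal proteases then leak into the cytosol and take part in the death of milk-producing cells. Cystatin C, the product of Cst3, is secreted and works outside cells and in vesicles, whereas cystatin B, the product of Cstb, stays in the cytosol and nucleus and inhibits cathepsins that escape there.

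Several facts of the arrays touch all the values below. All 7 milk protein genes measured, which mark the labelled tissue, were above the floor in every array. For the Gapdh controls the 3′ signal over the 5′ signal, a ratio that grows as RNA degrades, lay between 1.17 and 2.30, and that of actin between 4.60 and 7.86. Both were lowest in SDR lactation, the array that also had the highest signal for 6 of the 10 members, and the part of RNA quality in these differences was not tested. In bulk tissue, fewer cells of a type and less RNA per cell cannot be told apart.

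Cathepsin L, a cysteine endopeptidase with broad activity, had the widest range of the members. The brighter Ctsl probe set had a signal of 8175 in homozygous HHR, 3949.8 in heterozygous HHR, 21459 in SDR involution and 8308 in SDR lactation. The involution array stood alone at the top, heterozygous HHR was lowest, and homozygous HHR and SDR lactation lay together. The dimmer Ctsl probe set, which reads the same gene, had 1466 in homozygous HHR, 906 in heterozygous HHR, 7174 in SDR involution and 1896 in SDR lactation. Both probe sets put the 4 arrays in the same order, and the highest signal was 5.43-fold and 7.92-fold above the lowest.

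Cathepsin B, a lysosomal cysteine protease that acts as endopeptidase and carboxypeptidase, behaved differently. Ctsb had a signal of 17447 in homozygous HHR, 12495 in heterozygous HHR, 23153 in SDR involution and 23961 in SDR lactation. The SDR arrays were nearly level with each other, and both HHR arrays lay below them. Cathepsin S, the protease that trims the invariant chain in antigen-presenting cells, had a Ctss signal of 2766 in homozygous HHR, 3062 in heterozygous HHR, 2239 in SDR involution and 3489 in SDR lactation. Its highest signal was 1.56-fold above its lowest. Cathepsin K, the collagen-degrading enzyme of osteoclasts, had the weakest readings relative to the floor. Ctsk had 218 in homozygous HHR, 100.0 in heterozygous HHR, 156 in SDR involution and 382 in SDR lactation, so its heterozygous value was barely above 91.5.

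Ctsc, Ctsh and Ctsz are given together because their enzymes remove amino acids from chain ends, and not because their signals were alike. Cathepsin C, a dipeptidyl peptidase that activates the granule proteases of immune cells, had a brighter Ctsc probe set at 6239 in homozygous HHR, 9465 in heterozygous HHR, 3398.5 in SDR involution and 8825 in SDR lactation. The dimmer Ctsc probe set had 3333 in homozygous HHR, 5826 in heterozygous HHR, 1515 in SDR involution and 6359.5 in SDR lactation. Both were lowest in involution, next lowest in homozygous HHR, and close together in the remaining pair, whose order differed between the probe sets. Cathepsin H, an aminopeptidase, had a Ctsh signal of 17897 in homozygous HHR, 19068 in heterozygous HHR, 8287 in SDR involution and 31498 in SDR lactation. The 2 HHR arrays lay close together between the SDR arrays. Cathepsin Z, a carboxypeptidase, had a Ctsz signal of 2201 in homozygous HHR, 2384 in heterozygous HHR, 2103 in SDR involution and 2406 in SDR lactation. This was the flattest member, with a highest signal 1.14-fold above its lowest.

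Cathepsin D is the aspartic protease of the lysosome and is not inhibited by cystatins. Ctsd had a signal of 7122 in homozygous HHR, 4915 in heterozygous HHR, 10256 in SDR involution and 11650.4 in SDR lactation. As for Ctsb, the SDR arrays were close and heterozygous HHR was lowest. Of the inhibitors, Cst3 had 9283 in homozygous HHR, 6903 in heterozygous HHR, 13382.5 in SDR involution and 13278 in SDR lactation. Cstb had 3897 in homozygous HHR, 2556 in heterozygous HHR, 8049 in SDR involution and 4239 in SDR lactation. Cst3 was nearly level between the SDR arrays, while Cstb, like Ctsl, was highest in involution by a wide gap.

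**Figure D1:**
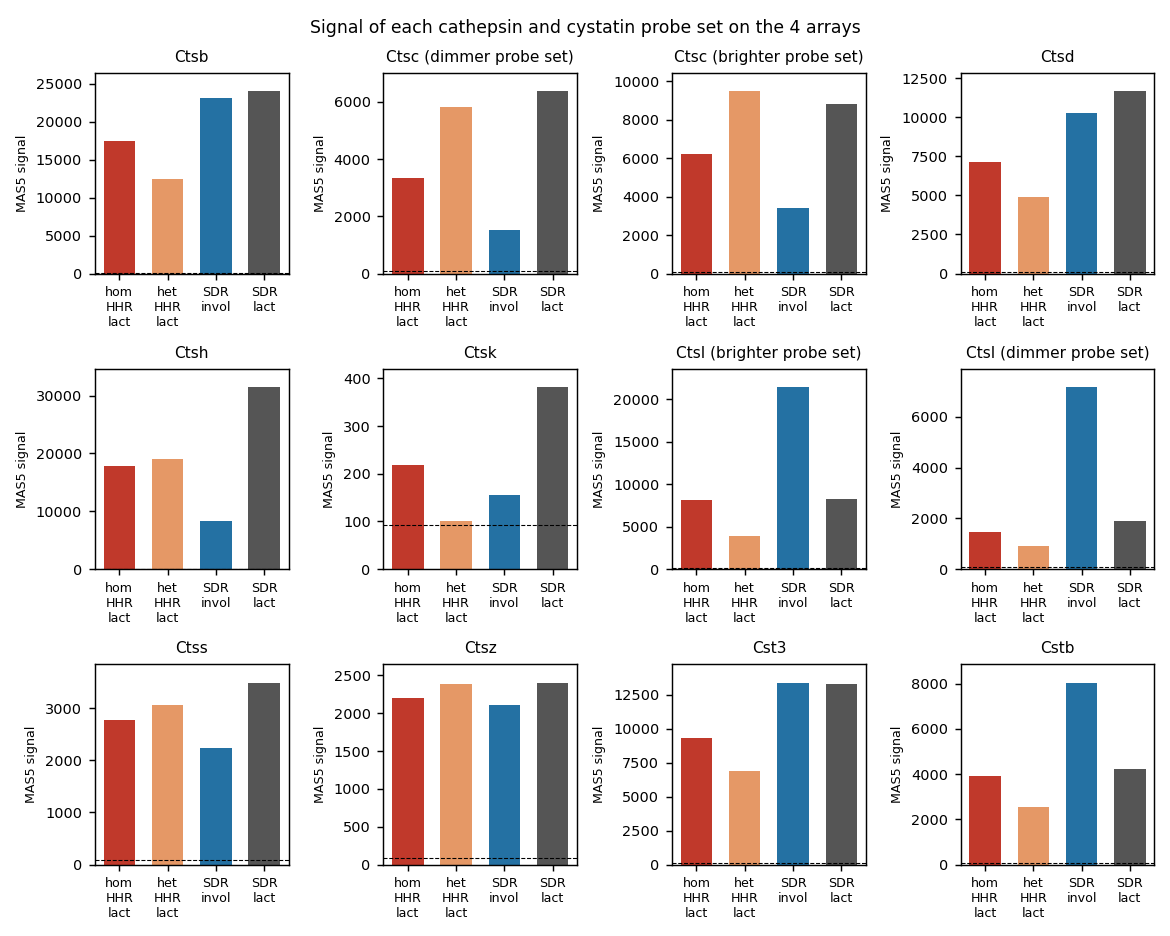
MAS5 signal (vertical axis, linear, from 0) of each of the 12 probe sets on the homozygous HHR lactation, heterozygous HHR lactation, SDR involution and SDR lactation arrays, 1 bar per array, with the floor of 91.5 as a dashed line. Both Ctsl probe sets and Cstb are highest in involution, and Ctsc and Ctsh are lowest there.

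Across the 4 arrays, the members fell into shapes. Each gene's log2 signals were centred on its own mean, and pairs of genes were compared by the root mean square difference of these centred values, a description over 4 arrays. Ctsb and Cst3 were the closest pair at 0.04, followed by Ctsd and Cst3 at 0.11 and Ctsb and Ctsd at 0.12. Next came the nearly level pair Ctss and Ctsz at 0.16, then Ctsl and Cstb at 0.28 and Ctsc and Ctsh at 0.30. Heterozygous HHR had the lowest signal for 6 of 10 members (Ctsb, Ctsd, Ctsk, Ctsl, Cst3 and Cstb), and SDR involution for the other 4 (Ctsc, Ctsh, Ctss and Ctsz). Homozygous HHR lay between heterozygous HHR and SDR lactation in the same 6 members. This is no separate observation, because all 10 members were lower in homozygous HHR than in SDR lactation.

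The 250 bases upstream of the annotated start are shown for 3 members: Ctsd and Cstb because a lysosomal gene motif was found in them, and Ctsl because it had the widest range of the members. They are RefSeq sequences of build GRCr8, written 5′ to 3′ on the gene's strand, for Ctsd chr1:206968822-206969071 on the minus strand, for Cstb chr20:10247200-10247449 on the minus strand and for Ctsl chr17:769854-770103 on the plus strand. Capitals mark CACGTG, the core of the element bound by Tfeb, which controls lysosomal genes, or TTCNNNGAA, the core of Stat sites. Each motif reads the same on both strands, and the 2 did not overlap.
Ctsd: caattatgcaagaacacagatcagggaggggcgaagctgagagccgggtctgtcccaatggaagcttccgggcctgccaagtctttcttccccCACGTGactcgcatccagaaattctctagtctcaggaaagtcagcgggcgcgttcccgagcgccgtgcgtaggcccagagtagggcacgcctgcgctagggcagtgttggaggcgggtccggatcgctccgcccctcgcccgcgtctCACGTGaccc
Cstb: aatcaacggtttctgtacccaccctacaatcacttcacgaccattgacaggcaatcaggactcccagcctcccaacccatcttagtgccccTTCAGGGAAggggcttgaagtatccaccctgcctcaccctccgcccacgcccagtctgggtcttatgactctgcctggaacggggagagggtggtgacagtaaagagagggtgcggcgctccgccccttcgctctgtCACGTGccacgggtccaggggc
Ctsl: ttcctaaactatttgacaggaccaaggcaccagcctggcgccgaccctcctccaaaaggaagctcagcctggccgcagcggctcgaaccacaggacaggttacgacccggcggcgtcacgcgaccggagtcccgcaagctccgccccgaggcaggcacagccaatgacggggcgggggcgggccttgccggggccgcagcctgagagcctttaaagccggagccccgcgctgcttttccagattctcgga

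Of the 10 members 9 had a promoter in the table, and the windows searched ran from 250 bases before to 50 bases after the start. CACGTG was found in 2 of the 9, Ctsd and Cstb, against 6.42% of 33469 promoters of the same length. In Ctsd it began 157 and 10 bases before the start, and in Cstb it began 22 bases before it. TTCNNNGAA was found in 1 of the 9, Cstb, where it began 159 bases before the start, against 8.87% of all promoters. A match describes letters only. Neither motif was in the Ctsl window, which says only that these letters are not in it.

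SDR on day 1 of involution were compared with SDR on day 1 of lactation. The length of lactation before involution is not given. Regression therefore cannot be told apart from the stage of lactation reached before it. Of the 10 members 1 was at least 2-fold higher in involution (Ctsl) and 3 were at least 2-fold lower (Ctsc, Ctsh and Ctsk). Ctsl was 2.58-fold higher by its brighter probe set and 3.78-fold higher by the dimmer. Ctsh was 3.80-fold lower, and Ctsc was 2.60-fold lower by its brighter and 4.20-fold lower by its dimmer probe set. Ctsk was 2.45-fold lower, but at this low signal it was short of 2-fold with a higher floor or an added pseudocount.

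This comparison moved many genes, since 19.2% of 11014 measured genes were at least 2-fold different, 10.3% higher and 8.94% lower, so 4 of 10 members stand beside that share of all genes. The median log2 difference over the members was -0.19, against 0.08 over all measured genes. Cstb, the cytosolic inhibitor, had a log2 difference of 0.93, just short of 2-fold, and it passed 2-fold after quantile normalization. The log2 differences were -0.05 for Ctsb, 0.01 for Cst3, -0.18 for Ctsd and -0.19 for Ctsz, and Ctss had -0.64. The signs nearest 0 depended on the scaling, since after quantile normalization Ctsb had 0.35 and Ctsd 0.06, and after median centring Cst3 had -0.06.

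Proteases and inhibitors thus differed to unequal extents in involution. By the brighter probe sets, the log2 difference of Ctsl exceeded that of Cst3 by 1.36 and that of Cstb by 0.44. For Ctsb the difference from Cst3 was -0.06 and from Cstb -0.97. Relative to Cstb, Ctsh had -2.85 and Ctsc -2.30 on the same scale. The sizes for Ctsl and Ctsc depend on the probe set, as their dimmer ones had log2 differences of 1.92 and -2.07. By its dimmer probe set Ctsc thus lay below Ctsh, which had -1.93.

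Markers of other cells were read beside these values. A list's summed signal is dominated by its brightest probe sets, so it is compared only between arrays and is no measure of cell number. Of 17 macrophage markers on the array 16 were measured. In involution 10.3% of all measured genes were higher and 8.94% lower by 2-fold or more. Of the 16 macrophage markers 1 was higher and 1 lower by as much, and their median log2 difference was 0.05. Their summed signal was 43487 in SDR involution and 30559.9 in SDR lactation, and Cd14, a receptor for bacterial lipopolysaccharide, supplied 20076 in involution and 5985 in lactation. Without Cd14 the sum was 23411 in SDR involution and 24575 in SDR lactation, so the direction turned. Laptm5 alone, at 997 in SDR involution and 2434 in SDR lactation, had a larger gap than this sum. Of the 16 markers 9 lay above 0. Itgam was under the floor in all 4 arrays. Among 14 luminal epithelial markers 4 were higher and 2 lower by 2-fold or more, including Krt19, a luminal keratin, at 4.84-fold higher. Elf5, a transcription factor of milk-secreting cells, went the other way, at 3420 in SDR involution against 13667.5 in SDR lactation. The luminal markers' summed signal was 154107 in SDR involution and 108084 in SDR lactation. Of 14 fibroblast markers 1 was higher by 2-fold or more and 0 were lower, with sums of 79493 in SDR involution and 97829.9 in SDR lactation. Of 7 dendritic and B cell markers 4 were measured, of which 1 was higher by 2-fold or more and 0 were lower. Of these 4 markers 3 lay above 0, and their median was 0.46. Their sums were 7479 in SDR involution and 8809 in SDR lactation. Most of each sum was Cd74, the invariant chain, at 5333 in SDR involution and 7512 in SDR lactation. Milk protein genes had a median of -0.38, with 0 of 7 past 2-fold. Their signals were very bright, as for Csn1s1 at 46394 in SDR involution and 59405 in SDR lactation, and saturation was not tested. The part of cell composition in the cathepsin differences was not tested.

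**Figure D2:**
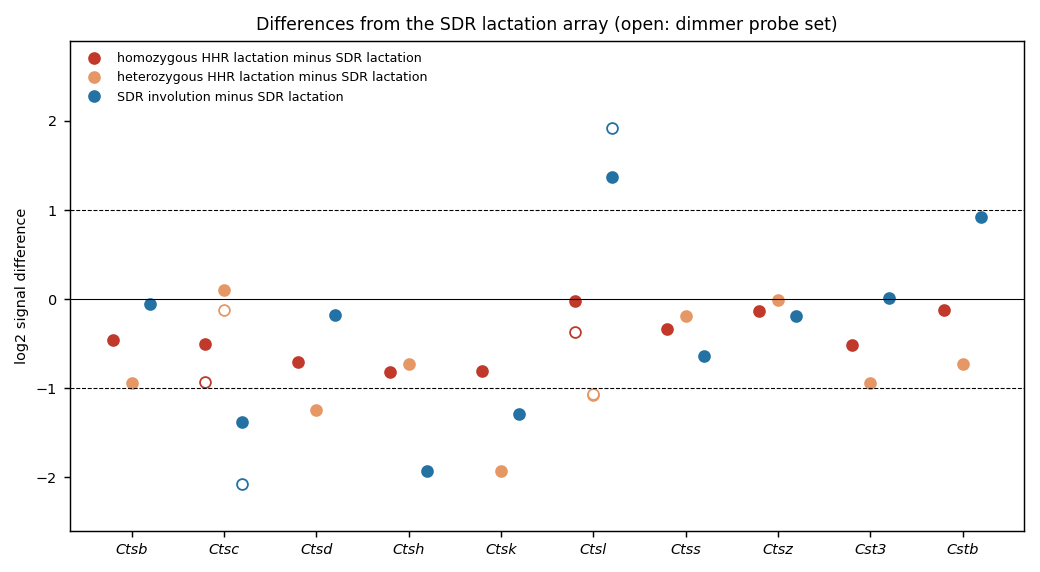
Log2 signal difference of each member from the SDR lactation array (vertical axis), for homozygous HHR, heterozygous HHR and SDR involution, with filled points for the brighter and open points for the dimmer probe set and dashed lines at 2-fold. Ctsl lies above the upper line only in involution, and the heterozygous points of Ctsd, Ctsk and Ctsl lie below the lower line. All 3 differences share the SDR lactation array.

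The heterozygous HHR array was next set against SDR lactation. Of the 10 members 3 were at least 2-fold lower in heterozygous HHR (Ctsk, Ctsd and Ctsl) and 0 were higher. Below 0 lay 9 of 10 members, against 49.0% of all measured genes. Ctsd was 2.37-fold lower, and Ctsl was 2.10-fold lower by its brighter and 2.09-fold lower by its dimmer probe set. Ctsk was 3.82-fold lower, on a heterozygous signal near the floor. Its log2 difference of -1.93 became -1.31 with a pseudocount and -0.95, short of 2-fold, with the floor at the 55th percentile. Differences of at least 2-fold were found in 8.73% of 10876 measured genes, 4.58% higher and 4.15% lower. The members' median log2 difference was -0.83, against 0.01 over all measured genes.

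Cst3 and Ctsb came near the same size, 1.92-fold lower each. Cstb was 1.66-fold lower and Ctsh 1.65-fold lower, while Ctss, Ctsz and Ctsc had log2 differences of -0.19, -0.01 and 0.10. After quantile normalization Ctsl was short of 2-fold at -0.98 and Ctsz had 0.03, and the dimmer Ctsc probe set had -0.13.

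In heterozygous HHR the macrophage markers were also low. By 2-fold or more 6 of 16 were lower, against 4.15% of all measured genes, and 0 were higher. Below 0 lay 15 of 16 markers, against 49.0% of all measured genes, and the markers' median was -0.66. Their summed signal was 17918 in heterozygous HHR and 30559.9 in SDR lactation, and without Cd14 it was 13385 in heterozygous HHR and 24575 in SDR lactation. Laptm5, a lysosomal membrane protein of blood cells, was 3.31-fold lower and Csf1r, the receptor for macrophage growth factor, 2.04-fold lower. Of 4 measured dendritic and B cell markers 2 were lower by 2-fold or more and 0 were higher, around a median of -0.91, with sums of 4328 in heterozygous HHR and 8809 in SDR lactation. Cd74, the invariant chain that Ctss trims, was 2.22-fold lower. Of 14 fibroblast markers 3 were lower and 0 higher by 2-fold or more. Their median was -0.56 and their summed signal 65655 in heterozygous HHR and 97829.9 in SDR lactation. Luminal epithelial markers had 0 of 14 past 2-fold and a median of -0.17, with sums of 105791 in heterozygous HHR and 108084 in SDR lactation. The part of these cells in the lower cathepsin signals was not tested.

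Homozygous HHR were compared with SDR at lactation, the question being which genes differ in the mutant gland. Of the 10 members 0 passed 2-fold in either direction, against 6.50% of 10866 measured genes (3.77% higher and 2.72% lower). All 10 nevertheless lay below 0, as did 48.6% of all measured genes, and the members' median log2 difference was -0.48 against 0.02 over all genes. After quantile normalization Ctsl had 0.08, so that 9 of 10 lay below 0. Ctsh was 1.76-fold lower, Ctsk 1.75-fold lower and Ctsd 1.64-fold lower. Ctsl was close to SDR lactation with a log2 difference of -0.02 by its brighter and -0.37 by its dimmer probe set. Cstb had -0.12 and Ctsz -0.13. Ctsc was 1.41-fold lower by its brighter and 1.91-fold lower by its dimmer probe set. Of 16 macrophage markers 1 was higher and 2 were lower by 2-fold or more, around a median of -0.20, and 10 of 16 lay below 0. Their sum was 34804 in homozygous HHR and 30559.9 in SDR lactation, of which Cd14 supplied 16494 in homozygous HHR and 5985 in SDR lactation. Without Cd14 the direction turned, at 18311 in homozygous HHR and 24575 in SDR lactation. Of 4 measured dendritic and B cell markers 1 was lower by 2-fold or more and 0 were higher, around a median of -0.60, with sums of 3983 in homozygous HHR and 8809 in SDR lactation. This marker was Cd74, at 2.65-fold lower. Fibroblast markers had 7 of 14 below 0 and a median of 0.01. Luminal epithelial markers also had 7 of 14 below 0, with a median of -0.02. In both lists 0 of 14 passed 2-fold. The part of these cells in the members' values was not tested. The heterozygous and the homozygous comparison share the SDR lactation array, so the low values of the members in them are not separate observations.

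Homozygous HHR were also set against heterozygous HHR, which leaves the SDR arrays out. Of the 10 members 2 were at least 2-fold higher in homozygous HHR (Ctsk and Ctsl) and 0 were lower. Beside them stood 6.90% of 10877 measured genes past 2-fold (3.76% higher and 3.14% lower). Above 0 lay 6 of the 10 members and 50.2% of all measured genes. The members' median log2 difference was 0.45, against 0.00 over all genes. Ctsl was 2.07-fold higher by its brighter probe set but 1.62-fold higher by its dimmer. Ctsk was 2.18-fold higher, on a heterozygous signal near the floor, and with the floor at the 55th percentile its log2 difference was 0.14. Cstb had 0.61, Ctsd 0.54, Ctsb 0.48 and Cst3 0.43, whereas Ctsc had -0.60. Macrophage markers had 15 of 16 above 0 with a median of 0.45, and their sum was 34804 in homozygous HHR and 17918 in heterozygous HHR. Most of that gap was Cd14, and without it the sum was 18311 in homozygous HHR and 13385 in heterozygous HHR. Of 4 measured dendritic and B cell markers 0 passed 2-fold, and 2 lay above 0, around a median of 0.15. Their sums were 3983 in homozygous HHR and 4328 in heterozygous HHR. Most of each sum was Cd74, at 2833 in homozygous HHR and 3387 in heterozygous HHR. Fibroblast markers had 14 of 14 above 0 with a median of 0.39, and sums of 95933 in homozygous HHR and 65655 in heterozygous HHR. Luminal epithelial markers had 11 of 14 above 0 with a median of 0.30, and sums of 116909 in homozygous HHR and 105791 in heterozygous HHR. The part of these cells was not tested.

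This comparison shares no array with that of SDR involution against SDR lactation, so the members' differences in both can be read side by side. The sign matched in 7 of 10 members, or 70.0%, against 54.8% of the 10496 genes measured in both. Ctsl and Cstb were positive in both comparisons, and Ctsc, Ctsh, Ctss and Ctsz were negative in both. Between the HHR arrays, however, Ctsh, Ctss and Ctsz had only -0.09, -0.15 and -0.12, so their matches rest on small differences. Ctsk went opposite ways, at 1.12 between the HHR arrays and -1.29 in involution. The match for Cst3 rests on an involution difference of 0.01, and Ctsb and Ctsd, of opposite sign here, were positive in both after quantile normalization.

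**Figure D3:**
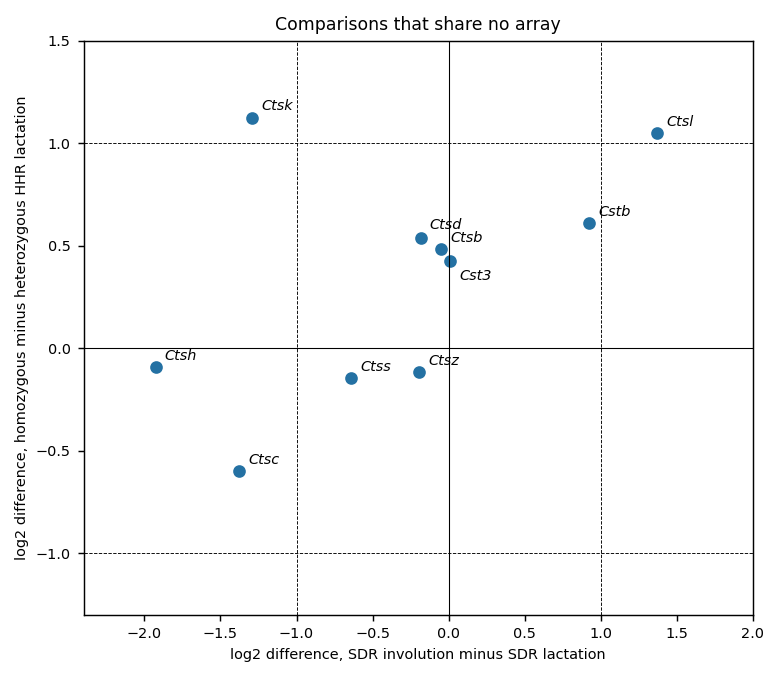
Log2 difference of each member between SDR involution and SDR lactation (horizontal axis) and between homozygous and heterozygous HHR lactation (vertical axis), brighter probe sets, with dashed lines at 2-fold. Ctsl and Cstb lie at the upper right, Ctsc at the lower left and Ctsk at the upper left. Ctsh lies at the far left with a vertical value of only -0.09.

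Last, homozygous HHR lactation was set against SDR involution. Of the 10 members 1 was at least 2-fold higher in homozygous HHR (Ctsh, 2.16-fold) and 2 were at least 2-fold lower (Ctsl and Cstb), beside 15.4% of 10998 measured genes past 2-fold (7.67% higher and 7.76% lower). Ctsl was 2.63-fold lower by its brighter and 4.89-fold lower by its dimmer probe set. Cstb was 2.07-fold lower, and after median centring it was just short of 2-fold at -0.99. Ctsc was 1.84-fold higher by its brighter and 2.20-fold higher by its dimmer probe set. The homozygous lactating gland therefore had signals of Ctsl and Cstb near those of SDR lactation, with those of Ctsc and Ctsh between the SDR arrays.

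The rest of the family was read from a list. Of 12 further cathepsins and relatives on the array 5 were measured, and 0 passed 2-fold in any of the 5 comparisons. Ctsa, the carboxypeptidase that protects lysosomal galactosidase and neuraminidase, had 5022 in homozygous HHR, 2965 in heterozygous HHR, 6046 in SDR involution and 4829 in SDR lactation. It was again lowest in heterozygous HHR. Ctsf, a cysteine cathepsin, had 787 in homozygous HHR, 532 in heterozygous HHR, 1298 in SDR involution and 886 in SDR lactation. Ctsw, Ctsj, Ctsm, Ctsq, Ctsr and Ctsql2 did not exceed the floor on any array. Of 12 further cystatins and relatives 4 were measured in involution, and Cst7, a cystatin of immune cells, had 226 in SDR involution and 164 in SDR lactation.

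Genes listed for lysosomal sorting and cathepsin maturation went both ways in involution. The list covers lysosomal sorting in general and not cathepsins alone. Of its 19 genes 3 were higher and 2 lower by 2-fold or more, around a median of 0.16. Over all measured genes 10.3% were higher and 8.94% lower by as much. Lgmn, the asparaginyl endopeptidase that cleaves cathepsin precursors, was 4.01-fold higher, at 3996 in SDR involution against 996 in SDR lactation. Scarb2, a lysosomal membrane receptor, was 3.61-fold higher. The sorting receptors Sorl1 and Sort1 were 2.96-fold and 2.29-fold lower. The general sorting receptor M6pr had 4221 in SDR involution against 4405 in SDR lactation. In the heterozygous and the homozygous HHR comparison with SDR 0 of 19 passed 2-fold.

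Lysosomal membrane proteins and hydrolases showed a similar spread in involution. Of 32 genes 7 were higher and 5 lower by 2-fold or more, around a median of -0.09, beside 10.3% and 8.94% of all measured genes. Lamp1 and Lamp2, the main lysosomal membrane glycoproteins, were 2.67-fold and 2.48-fold higher. Atp6v0d1, a subunit of the proton pump, was 2.47-fold lower, and Atp6ap1, an accessory pump protein, 2.18-fold lower. In heterozygous HHR against SDR 1 was higher and 1 lower, the acid phosphatase Acp5 at 2.27-fold lower, with a median of -0.20. The members' median in that comparison was -0.83. Their nearest relatives were also low there. The 5 measured further cathepsins and relatives had a median of -0.70, with 3 below 0 and 2 above. The 3 measured further cystatins and relatives, on low signals, had a median of -0.51, with all 3 below 0.

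**Figure D4:**
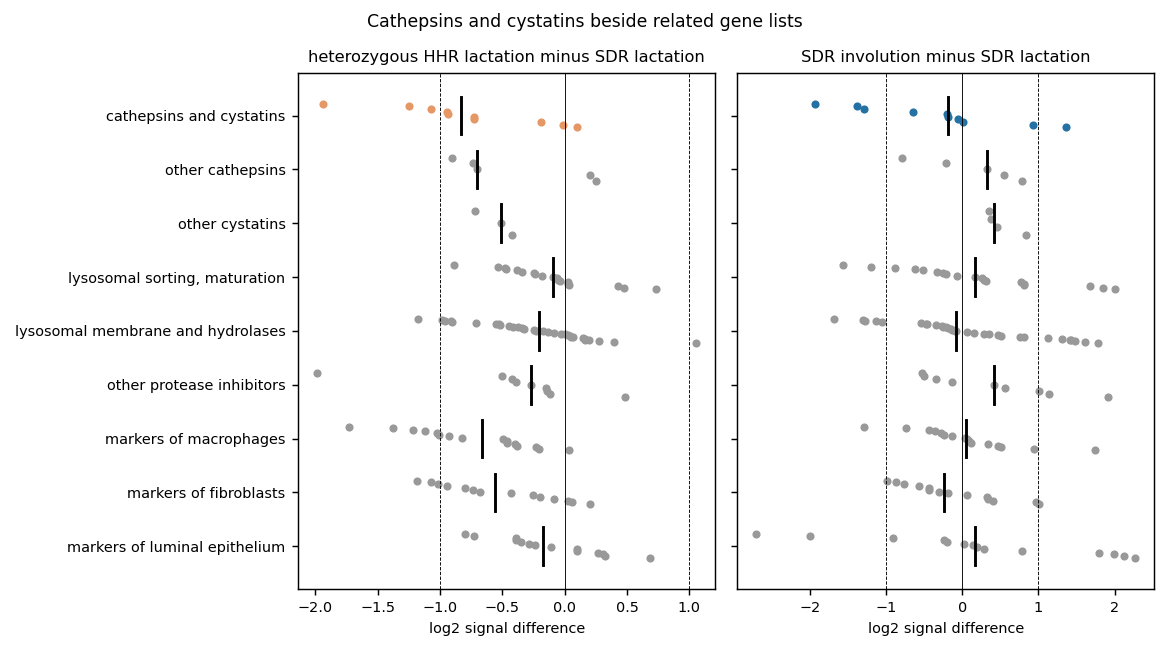
Log2 signal differences (horizontal axis) of heterozygous HHR lactation from SDR lactation (left) and of SDR involution from SDR lactation (right), 1 point per measured gene, for the members (coloured) and related lists (grey), with list medians as black bars. On the left the members' median is -0.83 and that of macrophage markers -0.66. On the right the members spread from -1.93 to 1.37.

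Among regulators, Stat3 had 3359 in homozygous HHR, 1621 in heterozygous HHR, 10652 in SDR involution and 1055 in SDR lactation. It was highest in involution, as were Ctsl and Cstb, but unlike them it was lowest in SDR lactation. In involution 10.3% of all measured genes were higher and 8.94% lower by 2-fold or more. The list of other protease inhibitors had 9 measured genes, 1 of them the kinase Bmp2k. Of these 9 genes 3 were higher by as much and 0 were lower, around a median of 0.42. The 3 included the serpin Serpinb6a at 3.75-fold higher and Ctla2a, an inhibitor of cathepsin L-like proteases in the mouse, at 2.02-fold higher. Of 8 cell death regulators 4 were higher by 2-fold or more and 0 were lower. These 4 included Bid, a Bcl2 family protein that cathepsins can cleave, at 2.12-fold higher, and Bcl2l1 at 2.10-fold higher. This list was not split by whether a gene promotes or opposes death. In homozygous HHR against SDR, Slpi, a secreted inhibitor of serine proteases, was 5.27-fold lower, and it was 3.96-fold lower in heterozygous HHR.

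Genes with the most similar pattern were sought for the 6 members whose log2 signals ranged over at least 1, as the smallest root mean square difference of centred log2 values over 4 arrays among 9381 candidates. For Ctsl these were Cd44 at 0.09, Ccl2 at 0.09 and Itgax at 0.12. For Cstb they were Asap3 at 0.04, Ifngr1 at 0.06 and Fancc at 0.07. Ctsh was nearest to Ell2 at 0.07, Mgat2 at 0.08 and Prdx4 at 0.09. Ctsc was nearest to Rnf126 at 0.03, Arhgef26 at 0.04 and Rbp4 at 0.06. Ctsd was nearest to Lyn at 0.03, Eci2 at 0.04 and Pigx at 0.05, and Ctsk to Itgbl1 at 0.10, Dusp2 at 0.14 and Epor at 0.17. With 4 arrays many genes share a pattern: between 6 candidates (Ctsk) and 161 candidates (Ctsc) lay within 0.2 of a member.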

How the data were processed

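Mammary gland RNA of 4 rat groups was measured on 1 array each, after silica column extraction and biotin labelling per the labels' protocols. The authors deposited a linear intensity for each probe set, the signal of MAS5, which is named per the submitters' processing notes. The mean with 2% trimmed from each end was 500.2 in every array, which shows the authors' scaling. The sources used here give no detection calls, saturation flags or MAS5 parameters. All columns were mapped by sample name (0 left over).

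Of 31099 probe sets 57 were controls, 20826 had 1 gene symbol, 436 several and 9780 none, and those with 1 symbol were named. Signals under the pooled 40th percentile (91.5) were raised to it before log2. The brightest probe set by mean log2 value stood for each gene, and genes over the floor in 1 or both arrays of a pair were called measured. Differences of at least 2-fold were counted in 5 pairs of arrays, with no test.

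The members, the lists and the rule for naming genes were chosen with earlier results of these data known. The rule takes all members and, from each list, the brightest up to 4 past 2-fold and 2 short of it, of which a selection is given. Ctsf, the cathepsins at the floor and Itgam fall outside it and were named after their values were seen. Of 203 list entries 163 distinct genes were on the array, and the inhibitor list also held Bmp2k, a kinase. Planned protein features were not run, as no protein table was used here.

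Alternatives were median centring, quantile normalization, the floor moved to the 25th or the 55th percentile, a pseudocount, averaging a gene's probe sets, probe sets without shared-probe suffixes and a 3-fold threshold. The dimmer probe set of Ctsc and Ctsl and the macrophage sum without Cd14 were added after seeing the data. The counting was tested on simulated data. Tools were Python 3.11.15, numpy 2.4.6, pandas 2.3.3 and matplotlib 3.10.9.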

Additional observations from a re-analysis of the deposited data

How the results depend on the processing

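The number of members past 2-fold was set beside 8 alternative settings and the later added use of the dimmer probe set of Ctsc and Ctsl. In homozygous against heterozygous HHR it was 2, and it came to 1 with the floor at the 55th percentile, with a pseudocount, with the mean of all probe sets and with the dimmer probe sets, because Ctsk or Ctsl was then short of 2-fold. With a 3-fold threshold it was 0 in that comparison, 1 of 3 in heterozygous HHR against SDR (Ctsk), 1 of 4 in involution against lactation (Ctsh) and 0 of 3 in homozygous HHR against SDR involution. In every other case it stayed within 1.5 times, and for homozygous HHR against SDR lactation it was 0 throughout. The members' median log2 difference kept its sign in all 5 comparisons under every alternative, and lay closest to 0 in involution against lactation after quantile normalization, at -0.05 in place of -0.19. No log2 difference of a member past 2-fold turned its sign, and without Cd14 the macrophage sum turned its direction in 2 comparisons, as given above. Counts over all genes also moved by over 1.5 times. With the 25th percentile they were 1159 in place of 706 for homozygous HHR against SDR, 1445 in place of 949 for heterozygous HHR against SDR and 1188 in place of 750 between the HHR arrays. With a pseudocount they were 458, 585 and 478 in that order. With a 3-fold threshold they were 151, 214 and 130 in that order, 745 in place of 2114 for involution against lactation and 568 in place of 1697 for homozygous HHR against SDR involution. Ctsk lies so near the floor that its size is the least certain of the members. No paired analysis was possible because each group has 1 array.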
